A study of Mus musculus with 9 samples.

Results

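Eph receptors are receptor tyrosine kinases, and ephrins are the membrane-bound ligands that neighbouring cells present to them. The 10 genes described here are 6 receptors (Epha2, Epha4, Ephb2, Ephb3, Ephb4, Ephb6) and 4 ligands (Efna1, Efna5, Efnb1, Efnb2). They were chosen by name, with earlier results of these data known, from the 18755 genes of the deposited counts and matched by Entrez identifier. They are 10 of the 20 Eph and ephrin genes with a row there, and all 10 had enough reads to be tested. RNA was sequenced from primary tumors of 4T1 cells, a mouse mammary carcinoma line that can be grafted into BALB/c mice with an intact immune system. 1000000 4T1 cells had been injected into mammary fat pad number 9 of female BALB/c mice aged 6 to 10 weeks. From day 15 after injection, the mice received for 5 days either the vehicle Natrosol (0.5%) alone or BI 853520 dissolved in it. BI 853520, an inhibitor of focal adhesion kinase (FAK), was given daily at 50 mg/kg by oral gavage. The vehicle group held 3 tumors (replicates 1 to 3) and the BI 853520 group 6 tumors (replicates 4 to 9). According to the paper, only tumors whose RNA quality sufficed were analyzed. The tumors of both groups carried no engineered allele that the labels name, and the libraries were made from snap-frozen pieces of whole tumor, which hold host cells beside 4T1 cells.

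When an Eph receptor meets an ephrin on an adjacent cell, both proteins cluster and signals run into both cells, the receptor through its kinase and the ephrin through Src family kinases and adaptor proteins. The outcome is commonly repulsion, loss of adhesion or a changed actin cytoskeleton. A-class receptors mainly bind A-class ephrins, which are held by a lipid anchor, and B-class receptors mainly bind B-class ephrins, which span the membrane; EphA4 binds both. EphA2 is overexpressed in many carcinomas, including those of the breast, while EphB4 and ephrin-B2 are the classical venous and arterial partners in blood vessels. FAK, the kinase that BI 853520 inhibits, is one of the proteins through which Eph receptors act on focal adhesions.

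The total count per tumor was 21727879 to 33850245 in the vehicle group and 16931607 to 22349873 in the BI 853520 group, so that 1 count was worth 0.0295 to 0.0591 CPM (counts scaled to a library of 1000000). Tumors of the same group resembled each other more than tumors of different groups, with a chi-square per gene of 8.70 to 29.5 within and 33.4 to 79.8 between groups. The labels do not say whether each tumor came from a separate mouse, and p-values therefore measure the spread between these tumors. Of the epithelial markers, Krt8 (413.8 to 527.7 CPM in vehicle tumors) and Krt18 were abundant, whereas Epcam was at 1.502 to 2.704 CPM and Krt5 at 0.179 to 1.56 CPM.

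BI 853520-treated tumors contained less RNA of most of these receptors and ligands. Epha2, Epha4, Ephb2, Efna1, Efna5 and Efnb2 fell, Ephb3 rose, and Ephb4, Ephb6 and Efnb1 did not pass the threshold (edgeR quasi-likelihood test, Benjamini-Hochberg adjusted p of at most 0.05 over 13966 genes tested). Thus 6 of 10 were lower, where 14.1% of all genes tested were, and 1 of 10 was higher, where 14.6% were. With the cutoffs that the study used for single genes, an unadjusted p of at most 0.05 and a change of at least 1.5-fold, 3 were lower (Epha2, Epha4, Ephb2) and 1 was higher (Ephb3), against 3.57% and 9.57% of all genes tested. The median log2 fold change of the 10 genes was -0.49, and 8 of 10 had a negative one; over all genes tested the median was -0.00371, and 50.5% were negative. In 6 of the 10 genes (Epha2, Epha4, Ephb2, Ephb6, Efna1 and Efna5) every treated tumor lay below every vehicle tumor, against 14.0% of all genes tested, and in Ephb3 every treated tumor lay above, against 14.1%. Because the 10 genes were chosen with earlier results of these data known, these comparisons with all genes are a description and not a test. Of the 5 other Eph and ephrin genes tested, 1 was lower and 0 were higher, and their median log2 fold change was -0.03. These tumors are mixtures, and fewer cells that express a gene cannot be told apart from less of its RNA per cell.

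**Figure D1:**
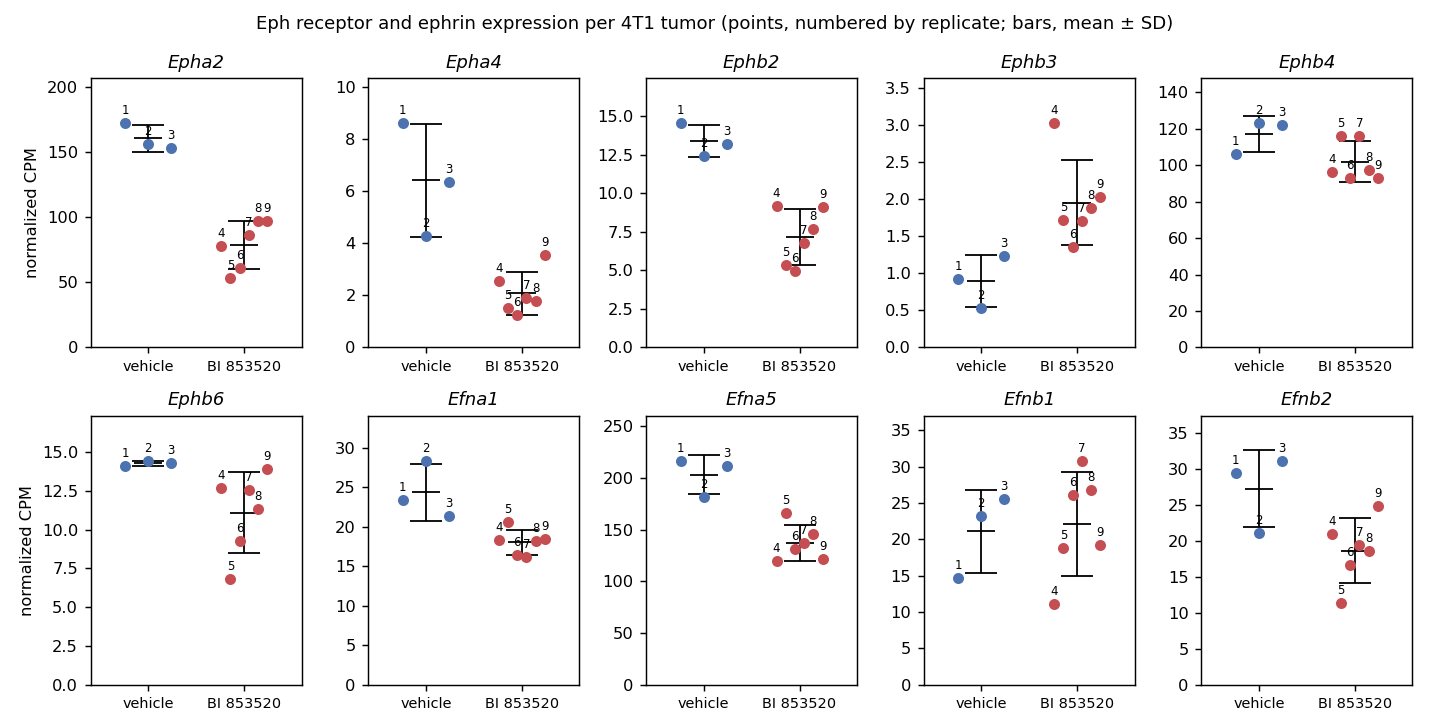
Normalized CPM (linear vertical axes from 0, each gene on its own scale) of the 10 genes in 3 vehicle and 6 BI 853520-treated tumors; points are tumors with their replicate number, and bars give the mean ± SD. Epha2, Epha4, Ephb2, Ephb6, Efna1 and Efna5 do not overlap between the groups and are lower after treatment, Ephb3 does not overlap and is higher, and Ephb4, Efnb1 and Efnb2 overlap.

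The sequences just upstream of the genes that changed most, and of Efnb2, are shown beside the direction of each gene's RNA. They are the 250 bases before the start of the RefSeq gene on GRCm38.p6, 5′ to 3′ on the gene's own strand. All 10 genes had at least 1 such window. Ephb2 and Efna5 changed more than Efnb2, but their windows held none of the motifs marked in capitals and are not printed. Capitals mark matches, on either strand, to GGAATG (the TEAD motif), TGACGTCA (the cyclic AMP response element), TGANTCA (AP-1), TGGGAA (RBPJ, the Notch effector) and ACGTG (the core bound by hypoxia-inducible factors).
Epha2 (chr4:141300971-141301220, plus strand): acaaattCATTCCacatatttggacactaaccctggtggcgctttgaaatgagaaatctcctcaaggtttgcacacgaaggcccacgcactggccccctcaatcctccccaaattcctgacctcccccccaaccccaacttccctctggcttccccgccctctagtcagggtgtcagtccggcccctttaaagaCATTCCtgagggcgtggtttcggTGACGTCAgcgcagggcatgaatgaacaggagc
Epha4 (chr1:77515089-77515338, minus strand): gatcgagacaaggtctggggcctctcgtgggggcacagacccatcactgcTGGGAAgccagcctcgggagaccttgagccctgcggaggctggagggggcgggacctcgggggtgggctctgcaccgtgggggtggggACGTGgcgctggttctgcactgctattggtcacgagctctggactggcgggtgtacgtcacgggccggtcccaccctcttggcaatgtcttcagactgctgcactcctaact
Ephb3 (chr16:21204545-21204794, plus strand): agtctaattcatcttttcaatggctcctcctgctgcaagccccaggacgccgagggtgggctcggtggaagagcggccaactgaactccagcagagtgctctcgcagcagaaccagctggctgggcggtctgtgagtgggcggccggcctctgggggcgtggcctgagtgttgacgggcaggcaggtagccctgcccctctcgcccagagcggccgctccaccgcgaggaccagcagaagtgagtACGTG
Efnb2 (chr8:8661243-8661492, minus strand): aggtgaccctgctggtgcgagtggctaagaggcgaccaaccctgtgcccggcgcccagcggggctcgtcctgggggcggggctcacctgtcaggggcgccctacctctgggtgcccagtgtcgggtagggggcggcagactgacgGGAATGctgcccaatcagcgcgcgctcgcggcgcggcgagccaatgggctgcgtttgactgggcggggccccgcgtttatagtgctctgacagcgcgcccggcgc
The Epha2 window held the TEAD motif at 2 places, 243 and 56 bases before the start, and the cyclic AMP element 33 bases before it. Of the 10 genes, Epha2 and Efnb2 had a TEAD match, which 12.6% of all 32841 promoter windows had, and Epha2 alone had the cyclic AMP element, which 1.55% had. AP-1 was matched in 0 of 10 (6.75% of all windows), the RBPJ motif in Epha4 and Efnb1 (21.6%), and the hypoxia core in Epha4, Ephb3 and Ephb6 (16.6%). The GC box GGGCGG, bound by Sp factors, stood in 8 of 10 genes, or 9 of 11 windows (32.7% of all windows). The windows of the 10 genes were 55.6 to 76.8% G or C, and the shares over all windows were not matched for this. Some other motifs that were searched are not reported here. The 4 windows printed thus had no motif marked in capitals in common, whereas the GC box, which was not marked, stood in all 4. These matches are letters in a window and not sites of binding.

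Among the A-class receptors, Epha2 (mm9 chr4:140857155-140885299, plus strand) was by far the most abundant. It was at 172, 156 and 153 CPM in vehicle replicates 1 to 3 and at 77.7, 53.7, 61.4, 86.2, 96.8 and 97.4 CPM in BI 853520 replicates 4 to 9. The highest treated tumor was therefore well below the lowest vehicle tumor. The mean went from 161 ± 10.2 (SD, n = 3) to 78.9 ± 18.2 CPM (SD, n = 6), a fold change of 2.04 downward (log2 fold change -1.03, SE 0.16; adjusted p = 0.000728). An exact permutation test over the 84 divisions of the tumors gave p = 0.0238 (two-sided), the smallest value that this design allows. The vehicle tumors were within a coefficient of variation of 6.36%, and the treated tumors spread over 23.1%.

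Epha4 (mm9 chr1:77363760-77511663, minus strand), a receptor best known for repelling growing axons, showed the steepest fall of the 10. It was at 8.61, 4.29 and 6.36 CPM in the vehicle tumors and at 2.55, 1.51, 1.26, 1.89, 1.77 and 3.53 CPM in the treated tumors. Its level is low, with 26 to 216 counts per tumor, and the vehicle tumors differed among themselves, but the groups did not overlap. The mean fell from 6.42 ± 2.16 (SD, n = 3) to 2.08 ± 0.834 CPM (SD, n = 6), 3.09-fold (log2 fold change -1.63, SE 0.291; adjusted p = 0.00177; exact permutation p = 0.0238).

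The B-class receptors did not move together: Ephb2 fell, Ephb3 rose, and Ephb4 and Ephb6 did not pass the threshold. Ephb2 (mm9 chr4:136203454-136391903, minus strand), which positions cells along the intestinal crypt and acts at synapses, was at 14.5, 12.4 and 13.2 CPM in the vehicle tumors. The treated tumors were at 9.16, 5.32, 4.92, 6.74, 7.70 and 9.10 CPM. All 6 were lower than any vehicle tumor, with a mean of 7.16 ± 1.82 (SD, n = 6) against 13.4 ± 1.06 CPM (SD, n = 3). The log2 fold change was -0.90 (SE 0.182; adjusted p = 0.00358; exact permutation p = 0.0238), or 1.87-fold lower.

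Ephb3 (mm9 chr16:21204828-21223378, plus strand), a partner of EphB2 in the intestinal crypt, was the one gene of the 10 that rose. It was at 0.916, 0.537 and 1.24 CPM in the vehicle tumors, that is near the lower end of what could be tested, and at 3.02, 1.72, 1.35, 1.71, 1.88 and 2.03 CPM in the treated tumors. The lowest treated tumor (replicate 6) was only just above the highest vehicle tumor (replicate 3), and replicate 4 stood highest. The mean rose from 0.897 ± 0.351 (SD, n = 3) to 1.95 ± 0.571 CPM (SD, n = 6), 2.13-fold (log2 fold change 1.09, SE 0.318; adjusted p = 0.0239; exact permutation p = 0.0238). These values rest on 12 to 64 counts per tumor. Without vehicle replicate 1 the log2 fold change was again 1.09 with an adjusted p of 0.0714, and without vehicle replicate 2 it was 0.84 with an adjusted p of 0.0955.

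Ephb4 (mm9 chr5:137791337-137819897, plus strand), the receptor of venous endothelium, was abundant in both groups. It was at 106, 123 and 122 CPM in the vehicle tumors and at 96.3, 116, 93.1, 116, 97.2 and 93.1 CPM in the treated tumors. Replicates 5 and 7 lay within the vehicle range, and 4 of 6 treated tumors lay below it. The difference, a log2 fold change of -0.20 (SE 0.0888), had an unadjusted p of 0.0445 and an adjusted p of 0.113 in the edgeR fit, and the exact permutation p was 0.119. Exons of Ephb4 overlap Zan on the other strand, and the sources used here do not say whether the counting used strand.

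Ephb6 (mm9 chr6:41555481-41570508, plus strand), whose kinase domain lacks catalytic activity, was at 14.1, 14.4 and 14.3 CPM in the vehicle tumors. The treated tumors ranged more widely, at 12.7, 6.83, 9.27, 12.5, 11.4 and 13.9 CPM. All 6 were below the vehicle tumors, yet replicate 9 by little, and the log2 fold change of -0.36 (SE 0.175) did not pass the test over all genes (adjusted p = 0.14), while the exact permutation test gave its smallest p, 0.0238. The coefficient of variation was 1.15% in the vehicle and 23.6% in the treated tumors.

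Both A-class ephrins of the 10 fell, by less than the A-class receptors. Efna5 (mm9 chr17:62953533-63230666, minus strand), a ligand of broad binding among A-class receptors, was at 217, 182 and 212 CPM in the vehicle tumors and at 120, 166, 131, 137, 146 and 122 CPM in the treated tumors. The groups did not overlap. The mean fell from 203 ± 18.9 (SD, n = 3) to 137 ± 17.2 CPM (SD, n = 6), 1.49-fold (log2 fold change -0.57, SE 0.098; adjusted p = 0.00136; exact permutation p = 0.0238).

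Efna1 (mm9 chr3:89075655-89085064, minus strand), the preferred ligand of EphA2, was at 23.4, 28.4 and 21.4 CPM in the vehicle tumors and at 18.3, 20.6, 16.4, 16.2, 18.1 and 18.5 CPM in the treated tumors. All treated tumors lay below the vehicle tumors, replicate 5 nearest to them. The log2 fold change was -0.44 (SE 0.103; adjusted p = 0.00877; exact permutation p = 0.0238), from 24.4 ± 3.6 (SD, n = 3) to 18.0 ± 1.61 CPM (SD, n = 6). Vehicle replicate 2 was the highest tumor, and without it the adjusted p was 0.0511 and the log2 fold change -0.31.

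The B-class ephrins gave the least certain results. Efnb2 (mm9 chr8:8617434-8661239, minus strand), the ligand of arterial endothelium, was at 29.5, 21.2 and 31.2 CPM in the vehicle tumors and at 21.0, 11.4, 16.6, 19.5, 18.7 and 24.9 CPM in the treated tumors. The treated replicate 9 lay above vehicle replicate 2, and the other 5 of 6 lay below all vehicle tumors. The log2 fold change of -0.55 (SE 0.191) passed narrowly (adjusted p = 0.0496; exact permutation p = 0.0476). It passed in 7 of 16 alternative analyses (adjusted p 0.0215 to 0.195) and was lost, among others, on leaving out vehicle replicate 1 (0.152) or 3 (0.195) or BI 853520 replicate 4 (0.0526), 6 (0.0795), 7 (0.0727) or 8 (0.079).

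Efnb1 (mm9 chrX:96331469-96344330, plus strand), an X-linked ligand that guides skull and face development, had no consistent direction. It was at 14.7, 23.2 and 25.5 CPM in the vehicle tumors and at 11.1, 18.9, 26.1, 30.8, 26.8 and 19.3 CPM in the treated tumors, so that the highest and the lowest of all 9 tumors were both treated ones. The means were 21.1 ± 5.71 (SD, n = 3) and 22.2 ± 7.14 CPM (SD, n = 6), with a log2 fold change of 0.06 (SE 0.266; adjusted p = 0.88; exact permutation p = 0.881).

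Of the other Eph and ephrin genes, 5 could be tested. Efnb3, a ligand of the nervous system, fell from 1.53 to 2.10 CPM in the vehicle tumors to 0.756 to 1.54 CPM in the treated tumors (log2 fold change -0.76, SE 0.254, adjusted p = 0.0413). This rests on 14 to 52 counts per tumor, and the groups overlapped, since treated replicate 6 lay above vehicle replicate 3. Epha1 (log2 fold change -0.03, SE 0.369), Epha3 (1.22, SE 0.721), Efna2 (0.38, SE 0.246) and Efna4 (-0.22, adjusted p = 0.163) did not pass the threshold. Epha3 was low and uneven, from 0.0447 CPM in vehicle replicate 2 to 2.26 CPM in treated replicate 9. Epha7, Epha8, Epha10, Ephb1 and Efna3 had too few reads to be tested, with at most 19 counts in any tumor. For Epha5 and Epha6 no row was found in the deposited counts. Of the 5 other genes tested, 1 was thus lower, where 14.1% of all genes tested were, and their median log2 fold change was -0.03. Efna1, Efna3 and Efna4 are neighbours on chromosome 3 and all on the minus strand; Efna1 fell, Efna4 did not pass the threshold, and Efna3 was not tested.

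**Figure D2:**
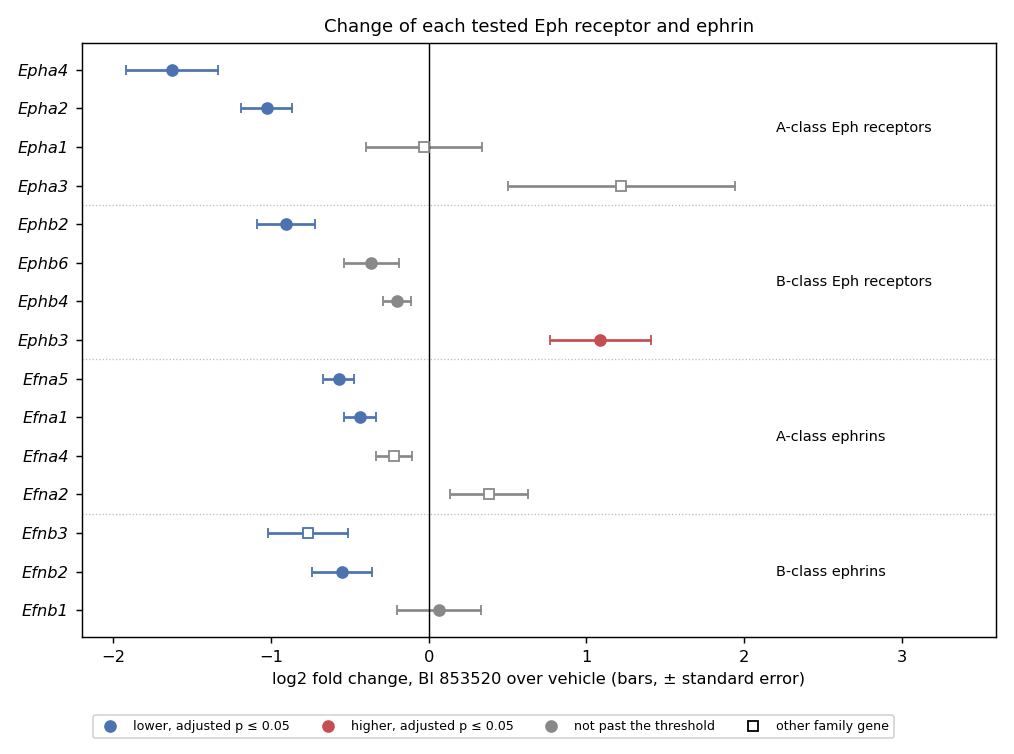
Log2 fold change (horizontal axis, BI 853520 over vehicle) with its standard error for the 15 Eph and ephrin genes tested, grouped by class; filled circles are the 10 genes described and open squares the 5 others, blue marks lower, red higher and grey not past an adjusted p of 0.05. Epha4 at -1.63 and Epha2 at -1.03 lie farthest to the left, and Ephb3 at 1.09 is the one called gene to the right of 0.

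Levels of different genes were compared per kilobase of the deposited gene length (RPKM). In the vehicle tumors the order of median levels was Efna5 (40.2 RPKM), Epha2 (39.8), Ephb4 (28.1), Efna1 (14.3), Efnb1 (7.12), Efnb2 (6.82), Ephb6 (3.80), Ephb2 (2.76), Epha4 (1.01) and Ephb3 (0.221). Efna5 and Epha2 overlapped over the 3 tumors, as did Efnb1 and Efnb2, and no other neighbours in this order did. Epha2 stood above 84.5% of all genes tested and Ephb3 above 4.66%. In the treated tumors the order became Efna5 (25.5 RPKM), Ephb4 (22.2), Epha2 (20.8), Efna1 (11.1), Efnb1 (6.97), Efnb2 (4.42), Ephb6 (3.18), Ephb2 (1.51), Ephb3 (0.435) and Epha4 (0.289). There Efna5 overlapped with Ephb4, Ephb4 with Epha2, Efnb1 with Efnb2, Efnb2 with Ephb6, Ephb6 with Ephb2, and Ephb3 with Epha4.

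Epha2 thus lost its lead among the receptors. The RPKM ratio of Epha2 to Ephb4 was 1.39 to 1.80 in the vehicle tumors and 0.513 to 1.16 in the treated tumors, below 1 in 4 of 6. Epha2 made up 49.3 to 53.5% of the summed receptor RPKM in vehicle tumors and 27.9 to 44.5% in treated tumors, while the share of Ephb4 went from 29.7 to 36.8% up to 38.3 to 54.4%. The level of Ephb4 itself did not rise, with medians of 28.1 RPKM in vehicle and 22.2 RPKM in treated tumors. The summed level of all receptors was 76.7 to 81.8 RPKM in vehicle and 44.6 to 56.3 RPKM in treated tumors. That of the ephrins was 75.2 to 79.4 and 51.1 to 63.4 RPKM, and the share of Efna5 in it overlapped between the groups, at 46.0 to 53.6% and 42.6 to 49.8%.

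**Figure D3:**
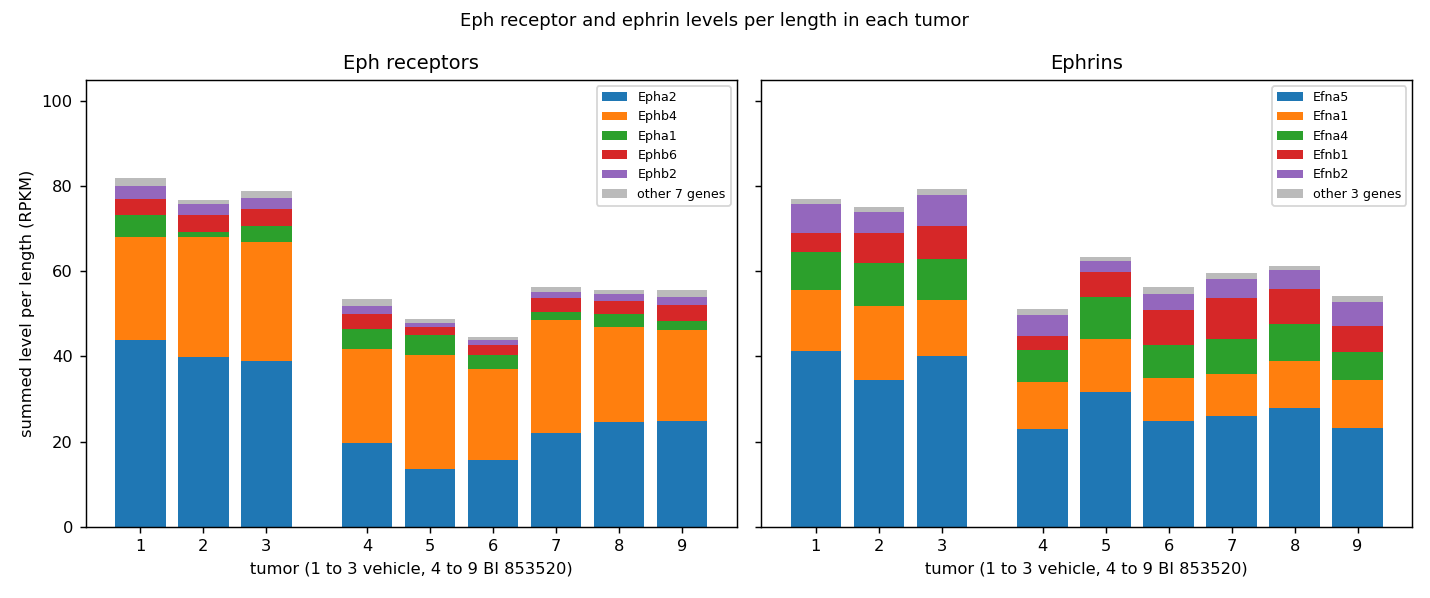
Summed level per length (RPKM, linear axis from 0) of the Eph receptors (left) and ephrins (right) in each tumor, stacked by gene with the 5 most abundant named; tumors 1 to 3 are vehicle and 4 to 9 BI 853520. The receptor bars drop from 76.7 to 81.8 RPKM to 44.6 to 56.3 RPKM, mostly in the Epha2 segment.

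The treated tumors differed among themselves in a partly shared way. Replicate 6 was among the 3 lowest treated tumors in all 6 genes that fell, and replicate 9 in 1 of them. Replicate 9 was the highest treated tumor in 4 of the 10 genes (Epha2, Epha4, Ephb6 and Efnb2), and replicates 5 and 6 were each the lowest in 3. Over the 9 tumors, the profile nearest to Epha4 among the 10 genes was that of Ephb2, and the reverse also held (distance 0.828 between log2 CPM profiles scaled to unit variance). For Epha2 the nearest of the 10 was again Ephb2 (0.937), and Efna1 and Efna5 were nearest to each other (2.08). These distances contain the difference between the groups. Many genes outside the 10 lay nearer. Ranked by distance among all genes tested, Ephb2 was number 92 for Epha2 and 25 for Epha4, and Epha4 was 27 for Ephb2. Efna5 was number 854 for Efna1, and Efna1 was 1439 for Efna5.

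Among all genes, the closest profile to Epha2 was that of Stx11 (0.366), followed by Uck2 (0.427), which salvages pyrimidine nucleosides, and the chromatin protein gene Hmga1 (0.445). Among the closest to Epha4 were Spire2 (0.477) and Ccsap (0.624), and Ephb2 was closest to Tenm4 (0.45), Adgrg3 (0.565) and Mettl14 (0.593). The profile of Efnb2 was closest to those of the mitotic kinesins Kif2c (0.406) and Kif23 (0.509) and of Ccdc34 (0.568). Among the closest to Efna5 were Ptpn14 (0.393), a phosphatase gene, and Zfp281 (0.625), and Efna1 was closest to Polr1c (0.838), Gm15910 (0.847) and P4hb (0.871). Ephb3 was nearest to Setbp1 (0.746), 1110051M20Rik (0.776) and Gca (0.869).

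Signalling partners, regulators and cleavage enzymes of Eph receptors and ephrins were followed in 6 lists holding 55 genes, of which 50 were tested. Of these, 13 of 50 rose and 7 fell, where 14.6% and 14.1% of all genes tested did, and their median log2 fold change was -0.03. Of the Src family and Abl kinases, which transmit ephrin signals, 2 of 6 rose and 1 fell. Fyn rose from 40.7 ± 2.64 to 59.7 ± 3.22 CPM (SD, n = 3 and 6; log2 fold change 0.55, adjusted p = 0.00014), and Src, the most abundant, fell slightly (-0.29, adjusted p = 0.0315). In the list of FAK, integrin beta 1 and adaptors, 1 of 10 rose and 3 fell. The scaffold gene Bcar1 fell (-0.45, adjusted p = 0.00266), the adaptor gene Grb2 rose (0.32, adjusted p = 0.00347), and Itgb1 was at -0.03 (adjusted p = 0.776). Ptk2, which encodes FAK, went from 230 ± 15.4 to 199 ± 9.29 CPM (SD, n = 3 and 6; log2 fold change -0.20, adjusted p = 0.0259), and its homolog Ptk2b was at 0.21 (adjusted p = 0.093).

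Of the 6 GTPase activating proteins 2 fell, Sipa1l1 (-0.28, adjusted p = 0.0115) and Rasa1 (-0.16, adjusted p = 0.033), where 14.1% of all genes tested did. In edgeR 0 of 6 rose, where 14.6% of all genes tested did. DESeq2, limma-voom and an unadjusted p under 0.05 in edgeR also gave 0 higher. The median log2 fold change of this list was -0.10.

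Phosphatases and proteases also act on Eph receptors and ephrins. Of the phosphatases, 4 of 9 rose, where 14.6% of all genes tested did, and 0 fell in edgeR, DESeq2 and limma-voom, with 0 lower at an unadjusted p under 0.05; their median log2 fold change was -0.06. Ptpn1, which dephosphorylates tyrosine kinase receptors, rose from 117 ± 6.91 to 166 ± 3.87 CPM (SD, n = 3 and 6; log2 fold change 0.50, adjusted p = 6.92e-05), and Inppl1, the most abundant, was at -0.09 (adjusted p = 0.335). Of the enzymes that cleave Eph receptors or ephrins at the cell surface or within the membrane, 5 of 13 rose in edgeR and 0 fell, with 1 lower at an unadjusted p under 0.05 and 0 by DESeq2 or limma-voom. The most abundant, Mmp14, a membrane-bound protease that cuts EphA2, rose from 503 ± 41.8 to 735 ± 65.9 CPM (SD, n = 3 and 6; log2 fold change 0.55, adjusted p = 0.000814). Of 6 tested partners with PDZ or SAM domains, Afdn fell (-0.38, adjusted p = 0.00826) and Sdcbp rose (0.20, adjusted p = 0.046).

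**Figure D4:**
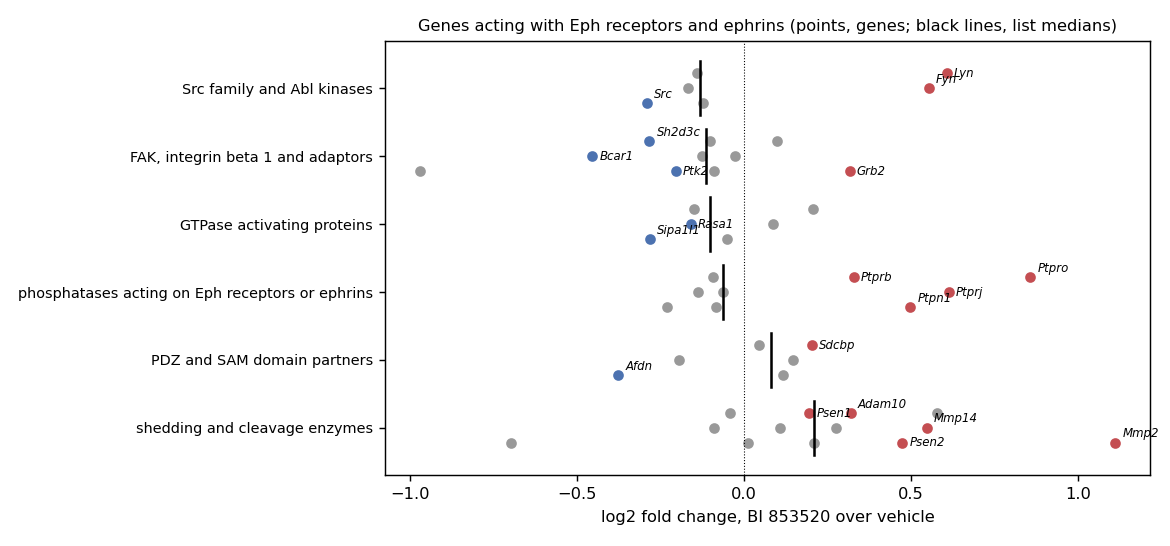
Log2 fold change (horizontal axis, BI 853520 over vehicle) of the tested genes of 6 lists of Eph and ephrin signalling partners; each point is a gene, red higher, blue lower and grey not past an adjusted p of 0.05, and black lines are list medians. Bcar1 at -0.45 lies farthest to the left of the called genes, and no called gene among the phosphatases or cleavage enzymes lies left of 0.

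Markers of the cells that could carry these receptors and ligands moved as well, and their part in the results above was not tested. Endothelial markers summed to 236 to 273 CPM in vehicle and 264 to 378 CPM in treated tumors. Of these markers, 4 of 12 were higher, among them Cdh5 (log2 fold change 0.41, adjusted p = 0.0231) and Kdr (0.38, adjusted p = 0.0214). The others did not pass, and Flt1 alone had a negative log2 fold change (-0.12, adjusted p = 0.476). The median log2 fold change of the list was 0.34. Arterial endothelium is the cell type in which Efnb2 is best known. Of its markers 0 of 7 passed in edgeR, with 1 higher at an unadjusted p under 0.05. DESeq2 called 1 of them higher and limma-voom 0. They summed to 291 to 307 CPM in vehicle and 223 to 296 CPM in treated tumors, of which Unc5b alone gave 205 to 287 CPM. Unc5b did not pass (log2 fold change -0.14, adjusted p = 0.258), and the median log2 fold change of the 7 was 0.09. Of the 6 venous and lymphatic markers tested, 1 passed, Nr2f2, which fell (-0.35, adjusted p = 0.0233). The median log2 fold change of these 6 was nevertheless 0.18, and 0 of them were higher at an unadjusted p under 0.05. Epithelial markers summed to 967 to 1191 CPM in vehicle and 761 to 969 CPM in treated tumors; Krt18 (-0.50, adjusted p = 0.00636) and Krt8 (-0.28, adjusted p = 0.0444) fell and made up most of this sum. The other 10 of 12 did not pass, and the median log2 fold change of the list was 0.13, with Epcam at 1.06 (adjusted p = 0.0987), Cldn3 at 1.36 (0.0847), Cdh1 at 0.16 (0.686) and Cldn4 at -0.67 (0.0939). All 9 macrophage markers rose (2795 to 3611 and 5019 to 6831 CPM), as did 8 of 9 T cell markers (76.8 to 84.7 and 139 to 201 CPM), and 4 of 6 neutrophil markers fell (523 to 752 and 221 to 372 CPM). Fibroblast markers (2 of 9 higher), pericyte and smooth muscle markers (1 of 7 higher), B cell markers (2 of 4 higher) and nerve markers (1 of 5 lower, but 0 by DESeq2 and 2 by limma-voom) can be read against all genes tested, of which 14.6% were higher and 14.1% lower. In edgeR, DESeq2 and limma-voom 0 of 7 adipocyte and 0 of 6 skeletal muscle markers passed, and 2 and 0 of them, respectively, had an unadjusted p under 0.05. No marker was at 0 in all tumors.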

How the data were processed

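RNA from 9 snap-frozen tumors was sequenced as TruSeq Stranded mRNA libraries, paired-end. The authors aligned the reads to mm9 with STAR, kept unique alignments, and counted, for each RefSeq gene, the reads that began within its exons; the deposited values are raw counts per gene, not normalized, with a gene length in bases. A STAR version is not given in the sources used here. RefSeq gave a symbol for 18700 of the 18755 Entrez identifiers; positions came from a GENCODE annotation of mm9, and promoter windows from RefSeq on GRCm38.p6.

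The quasi-likelihood F test of edgeR 4.0.16 (R 4.3.3) was fitted to the counts of all genes that had at least 10 counts in enough tumors and 15 in total. It used TMM factors (0.984 to 1.02) and no covariates, since the labels name no batch. CPM are TMM-normalized, log2 CPM used a prior count of 2, and RPKM divide CPM by the deposited length. The standard error of a log2 fold change was taken from its F value. Exact permutation tests compared mean log2 CPM and were two-sided (2 times the smaller tail). A value of 3 counts, the limit that a count of 0 allows, corresponds to 0.0886 to 0.177 CPM and covers counting error only. Alternatives were other normalizations, filters and tests (DESeq2 1.42.0, limma-voom, the likelihood ratio test) and leaving out each tumor.

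The 10 genes and all lists were chosen with earlier results of these data known. Of the pathway lists, the text names per list the genes with the smallest p in each direction among those called and the most abundant gene, and, for each called Eph or ephrin gene, the 3 genes with the nearest profile. Of 200 list entries, 4 had no row. Krt5, Epcam, Cldn3, Cldn4, Cdh1, Cdh5, Kdr, Flt1, Unc5b, Nr2f2, Krt8 and Krt18 are markers named after their values were seen. Some genes and lists that these rules name are not reported here.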

Additional observations from a re-analysis of the deposited data

How the results depend on the processing

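Epha2, Epha4, Ephb2 and Efna5 passed the threshold in all 16 alternatives, Efna1 in 15, Ephb3 in 14 and Efnb2 in 7, and Ephb4, Ephb6 and Efnb1 in 0. The count of lower genes was 5 with RLE normalization, library size normalization or a filter of 1 CPM in 3 tumors, where Efnb2 was lost (adjusted p 0.0523, 0.06 and 0.0548), and 6 in the other 4 alternatives that kept all tumors. Leaving out each tumor gave 0 to 1 higher genes (0 without vehicle replicate 1 or 2), 5 to 6 lower genes and 4 to 6 past the study's cutoffs, and a 2-fold limit gave 3. The log2 fold change of Efnb1 ranged from -0.14 to 0.23 on leaving out tumors, and was -0.14 without vehicle replicate 1 and -0.06 without BI 853520 replicate 7; the cause was not tested. Ordered by the median over all 9 tumors, 8 of the 10 genes kept their place by level. No paired analysis was possible because the groups share no replicate numbers. Of the 10 genes, depth limits Ephb3 and Epha4 most, with as few as 12 and 26 counts in a tumor.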
